A study of Mus musculus with 30 samples.

Results

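The granzyme genes of the mouse were compared across B16 melanomas that made IFNα4, IFNα9 or neither, with Gzmd as the leading member. Every gene whose identifier carries a symbol starting with Gzm was taken, which gave 3 genes with a row (Gzmd, Gzmk and Gzmm) of 10 granzyme genes in the GENCODE M21 annotation. The other 7 (Gzma, Gzmb, Gzmc, Gzme, Gzmf, Gzmg and Gzmn) had no row among the 39676 identifiers used here and were not analysed here, so no level is given for the best known members, Gzma and Gzmb. Gzmd was chosen by its measured counts in these same tumors, where its level differed between the types. Its values are therefore given as a description without a test, whereas Gzmk and Gzmm came in by symbol and were tested.

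Granzymes are serine proteases that NK cells and cytotoxic T cells store in secretory granules and release toward a target cell, together with the pore-forming protein perforin. Members differ in what they cut: granzyme A and granzyme K are tryptases, granzyme B cuts after aspartate, and granzyme M cuts after methionine or leucine. The mouse has a group of granzyme B-related genes on chromosome 14 that includes Gzmd and is expanded relative to that of humans.

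Each of the 3 types was represented by 10 separate whole tumors taken 8 days after engraftment. B16-GFP tumors grew from B16 cells, a C57BL/6 mouse melanoma line, that carried the empty retroviral vector with GFP, while B16-IFNA4 and B16-IFNA9 tumors grew from B16 cells whose vector also carried mouse Ifna4 or Ifna9 under the viral promoter. All of these cells also expressed glycoprotein B of herpes simplex virus and firefly luciferase, and the hosts were young adult female C57BL/6 mice with their own immune cells. Stranded mRNA libraries were read as single 50-base reads, and totals ran from 14598517 to 19788383 counts per tumor with a median of 16712970.5. Ifna4 had 81 to 188 counts in B16-IFNA4 tumors and Ifna9 55 to 148 in B16-IFNA9 tumors, and each was at 0 in the other types. The tumor label was borne out by Tyrp1, the pigment cell enzyme, at a mean of 86563 counts. B16-GFP tumor 7 had the lowest scaling factor, 0.768, and the lowest summed NK cell, T cell and leukocyte marker levels of its type.

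Gzmd (ENSMUSG00000059256.6) lies on the minus strand at chr14:56129556-56132608 in GRCm38 and has 5 exons and 1 transcript of 964 bases. It is the second of 7 granzyme genes in a cluster of 144.6 kb, in the order Gzme, Gzmd, Gzmg, Gzmn, Gzmf, Gzmc and Gzmb. Of the 41 protein-coding genes within 500 kb of Gzmd only 9, or 22.0%, had a row, against 85.6% of the 21951 protein-coding genes of the annotation. Gzmk (ENSMUSG00000042385.14) lies on the minus strand at chr13:113171608-113225908, where Esm1 overlaps it on the opposite strand without sharing exon sequence. Gzmm (ENSMUSG00000054206.2) lies on the plus strand at chr10:79689020-79695261.

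Because the reads were 50 bases long, the sequence that Gzmd shares with its neighbors sets what a Gzmd count can mean. The coding sequences of Gzmd and Gzme, the neighboring granzyme E gene, were 93.3% identical in a global alignment, followed by Gzmg at 86.4%, Gzmf at 83.4% and Gzmn at 79.4%. Identity fell to 64.8% with Gzmb, 49.1% with Gzmm and 47.3% with Gzmk. The first pair of lines below shows bases 94 to 143 of both coding sequences, the 50-base window with the most differences in the gap-free part, with its 8 differing bases in capitals. The last line is the longest run the genes have in common, bases 410 to 505 of the Gzmd coding sequence, 96 bases with no difference.
Gzmd, bases 94 to 143: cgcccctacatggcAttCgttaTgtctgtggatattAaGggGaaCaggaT
Gzme, bases 94 to 143: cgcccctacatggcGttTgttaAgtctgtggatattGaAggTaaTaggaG
Gzmd and Gzme, bases 410 to 505: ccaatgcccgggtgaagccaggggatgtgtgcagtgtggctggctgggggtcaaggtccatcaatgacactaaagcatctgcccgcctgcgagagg

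Of the 915 stretches of 50 bases in the Gzmd transcript, 200 (21.9%) also occur in the transcript of another gene, all of them granzymes without a row. Gzme shares 110 of them, Gzmg 65, Gzmf 40, and Gzmc and Gzmn 3 each. With up to 1 mismatch the share that another granzyme transcript also matches rises to 49.5%, and with up to 2 mismatches to 62.8%. Gzmk shares none of its 1388 stretches and Gzmm none of its 1423. How the counting treated reads with several matches is not given in the sources used here. The Gzmd values below therefore stand for reads assigned to Gzmd, and a part of them may have come from Gzme, Gzmg or Gzmf transcripts, which was not tested.

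**Figure D1:**
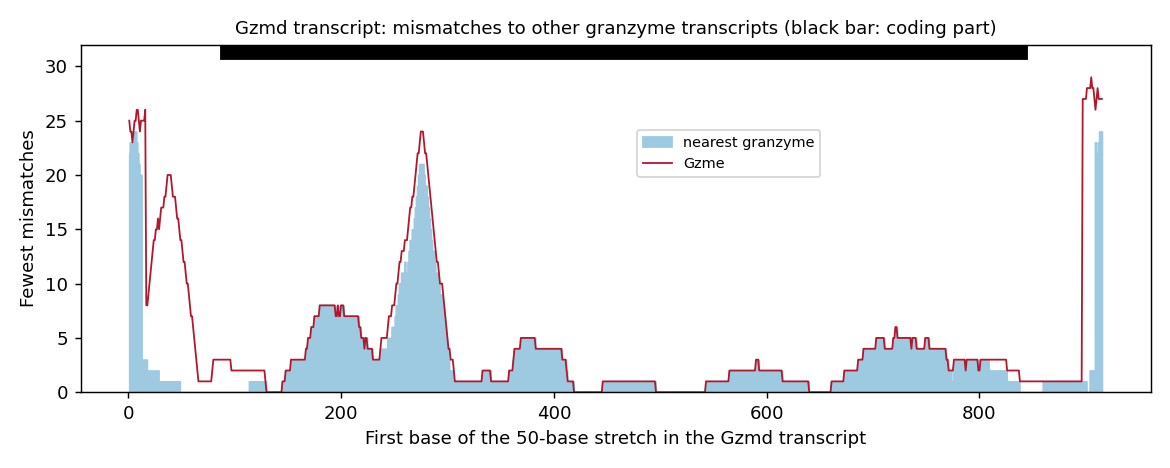
Fewest mismatches (vertical axis, bases) between each 50-base stretch of the Gzmd transcript (horizontal axis, first base of the stretch) and any stretch of another granzyme transcript (blue area) or of Gzme (red line); the black bar spans the coding sequence. Stretches at 0, 200 of 915, cannot be told apart from another granzyme by sequence, and few parts of the coding sequence differ by more than 5 bases.

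The promoter windows, 250 bases before to 50 after the RefSeq start site on GRCm38.p6, are shown for Gzmd and for Gzmk because these were the members with the largest differences between types. The Gzmd window is chr14:56132544-56132843, minus strand. It holds 2 matches to the RUNX motif TGTGGT, in capitals, at 174 bases before the start on the reverse strand (read as ACCACA) and at 112 bases before it on the forward strand.
Gzmd promoter: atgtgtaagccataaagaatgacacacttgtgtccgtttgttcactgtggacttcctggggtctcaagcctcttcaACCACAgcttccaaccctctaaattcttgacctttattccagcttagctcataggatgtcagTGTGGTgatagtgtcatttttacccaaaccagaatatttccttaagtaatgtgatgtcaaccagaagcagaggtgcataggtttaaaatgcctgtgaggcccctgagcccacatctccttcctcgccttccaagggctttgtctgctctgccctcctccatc
At least 1 such match occurs in 16.8% of 32851 promoters. The Gzmk window is chr13:113180916-113181215, minus strand.
Gzmk promoter: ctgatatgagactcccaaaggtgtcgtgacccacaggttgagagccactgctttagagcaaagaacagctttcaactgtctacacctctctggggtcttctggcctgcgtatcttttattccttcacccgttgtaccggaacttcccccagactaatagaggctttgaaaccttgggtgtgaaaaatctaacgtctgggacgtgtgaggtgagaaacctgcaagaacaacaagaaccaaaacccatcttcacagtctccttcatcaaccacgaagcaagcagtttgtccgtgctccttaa
It holds no match to the 10 motifs searched on both strands: RUNX, AP-1 (TGANTCA), CRE (TGACGTCA), T-box (AGGTGTGA), the STAT site (TTCNNNGAA), the ISRE core (TTTC, any 2 bases, TTTC), ETS (ACAGGAAG), Ikaros (TGGGAA), NF-kB (GGGAC followed by TTTCC) and the core of an IRF site (AANNGAAA), which can lie within an ISRE core. The ISRE core, found in 3.4% of all promoters, was in none of the windows of the 3 granzymes. The first of 2 Gzmm start sites had 1 RUNX match, 1 STAT match (8.3% of promoters) and 2 overlapping IRF site cores (23.9% of promoters). These are letters in a window and were not tested for binding.

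Gzmd counts were highest in B16-IFNA9 tumors and lowest in B16-IFNA4 tumors. In B16-GFP tumors 1 to 10 the counts were 22, 18, 11, 33, 36, 38, 5, 54, 26 and 29. In B16-IFNA4 tumors they were 8, 13, 16, 8, 17, 27, 17, 10, 12 and 8. In B16-IFNA9 tumors they were 98, 170, 104, 77, 37, 69, 129, 217, 72 and 126. The lowest B16-IFNA9 tumor, tumor 5, was the only one of its type to lie within the B16-GFP range, and none lay within the B16-IFNA4 range.

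On the scale of CPM (counts per 1000000 of the TMM-scaled library), Gzmd averaged 6.54 ± 3.53 CPM (SD, n = 10) in B16-IFNA9 tumors, with a lowest value of 1.99, a median of 5.97 and a highest of 14.1. It averaged 1.61 ± 0.797 CPM (SD, n = 10) in B16-GFP tumors, between 0.447 and 3.05 around a median of 1.77. It averaged 0.773 ± 0.329 CPM (SD, n = 10) in B16-IFNA4 tumors, between 0.475 and 1.53 around a median of 0.682. The order of the levels was thus B16-IFNA9, B16-GFP, B16-IFNA4, and the last 2 overlapped: 6 of the 10 B16-GFP tumors lay above every B16-IFNA4 tumor and 1, tumor 7, lay below them all. Since whole tumors were measured, more cells that make a granzyme and more granzyme RNA in each cell cannot be told apart.

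The fitted Gzmd difference between B16-IFNA9 and B16-IFNA4 tumors was 3.06 on the log2 scale (SE 0.324), an 8.36-fold higher level, with every B16-IFNA9 tumor above every B16-IFNA4 tumor. In that comparison 2.08% of the 15926 genes tested had every B16-IFNA9 tumor higher and 0.741% every B16-IFNA9 tumor lower. Since this contrast chose Gzmd, nothing is read from these shares. Against B16-GFP the Gzmd difference was 2.01 (SE 0.305), or 4.02-fold higher, in B16-IFNA9 tumors, 9 of which lay above all B16-GFP tumors. Against the same B16-GFP tumors it was -1.06 (SE 0.324), or 2.08-fold lower, in B16-IFNA4 tumors. The comparisons with B16-GFP share their control tumors, so each is given only by its own values.

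**Figure D2:**
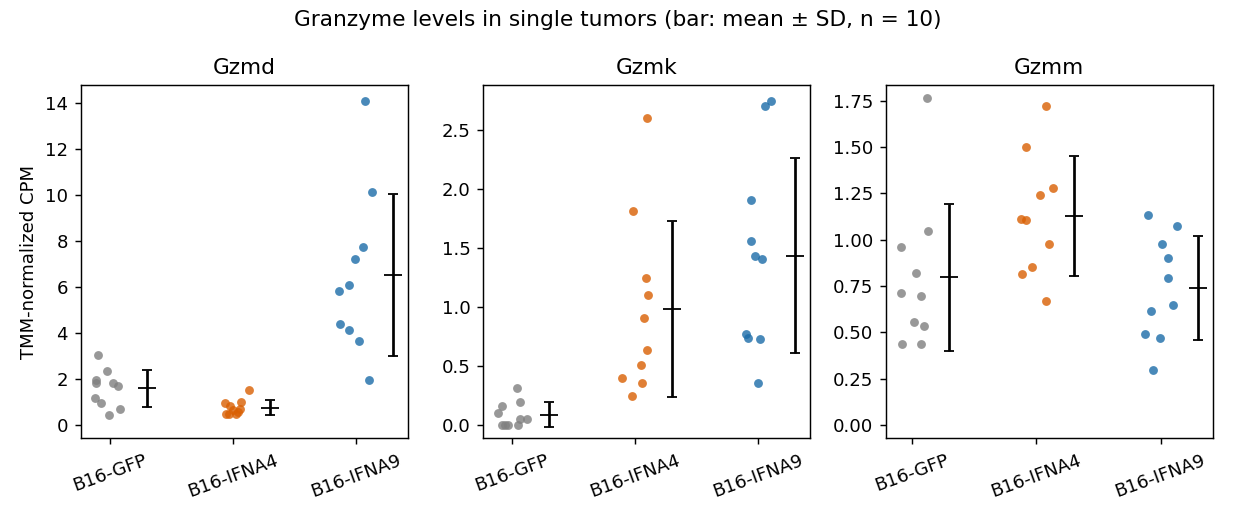
TMM-normalized CPM (vertical axes, linear, a separate scale for each gene) of Gzmd, Gzmk and Gzmm in the 30 tumors by type; each point is 1 tumor and the bars are the mean ± SD of 10. Gzmd in B16-IFNA9 tumors (1.99 to 14.1 CPM) lies above all B16-IFNA4 tumors, Gzmk is near 0 in B16-GFP tumors, and the Gzmm ranges overlap.

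Gzmk, the granzyme K gene of chromosome 13, was near 0 in B16-GFP tumors and was counted in every tumor of both interferon types. In B16-GFP tumors 1 to 10 the counts were 0, 2, 0, 1, 3, 5, 0, 1, 3 and 0, a total of 15. In B16-IFNA4 tumors they ran from 4 to 42 with a median of 13.5. In B16-IFNA9 tumors they ran from 6 to 51 with a median of 22.5. Gzmk was at 0 in 4 B16-GFP tumors, where 3 counts would be 0.160 to 0.268 CPM, and every B16-IFNA9 tumor lay above every B16-GFP tumor.

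In CPM, Gzmk averaged 0.0893 ± 0.106 in B16-GFP, 0.983 ± 0.746 in B16-IFNA4 and 1.43 ± 0.825 in B16-IFNA9 tumors (SD, n = 10 each). It rose by 3.33 (log2, SE 0.547) from B16-GFP to B16-IFNA4 tumors (edgeR quasi-likelihood test with Benjamini-Hochberg adjustment over all genes tested, adjusted p = 5.27e-06), higher than all B16-GFP tumors in 9 of 10. In that comparison 65.4% of all genes tested passed the same threshold of 0.05, 31.3% upward and 34.1% downward, and 8.5% had every B16-IFNA4 tumor higher. Gzmk rose by 3.88 (SE 0.538) from B16-GFP to B16-IFNA9 tumors in the same test (edgeR, adjusted p = 7.53e-07), with 10 of 10 above. There the background was 55.7% of genes called, 26.9% upward, and 4.44% with every B16-IFNA9 tumor higher. Gzmk passed the filter of a mean of 10 counts only through the interferon types, so it had to differ if kept. The p-values above are therefore not read as support. The fit without that filter, which does not share this limit, gave the same calls.

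Between B16-IFNA9 and B16-IFNA4 tumors Gzmk did not differ beyond the spread. The log2 difference was 0.55 (SE 0.407, 95% interval -0.28 to 1.39; edgeR adjusted p = 0.383). Of all genes tested, 17.8% were called in that comparison, 10.5% higher and 7.25% lower in B16-IFNA9 tumors. The B16-IFNA9 and B16-IFNA4 ranges of Gzmk overlapped, with 2 B16-IFNA9 tumors above all B16-IFNA4 tumors.

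Gzmm, the granzyme M gene, which is known mainly from NK cells, showed no difference that passed the test. Its counts were 6 to 32 in B16-GFP tumors with a median of 13, 13 to 29 in B16-IFNA4 tumors with a median of 19, and 5 to 20 in B16-IFNA9 tumors with a median of 12.5. The means were 0.797 ± 0.397, 1.13 ± 0.322 and 0.740 ± 0.279 CPM (SD, n = 10 each). All 3 ranges overlapped, and the highest tumor of all, at 1.76 CPM, was B16-GFP tumor 5.

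The Gzmm difference was 0.49 on the log2 scale (SE 0.247, 95% interval -0.02 to 0.99) for B16-IFNA4 against B16-GFP (edgeR adjusted p = 0.0839). Without B16-GFP tumor 5 it was 0.70 and passed the test (edgeR adjusted p = 0.00965). With the replicate number as a block it was 0.55 and also passed (edgeR adjusted p = 0.0333). For B16-IFNA9 against B16-GFP it was -0.11 (SE 0.253, 95% interval -0.63 to 0.41, edgeR adjusted p = 0.718). For B16-IFNA9 against B16-IFNA4 it was -0.60 (SE 0.247, 95% interval -1.11 to -0.09), with an unadjusted p of 0.0216 and an adjusted p of 0.0932 by edgeR. In the fit of only the 20 tumors compared it was -0.61 and just passed (edgeR adjusted p = 0.0476).

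Per kilobase of exon sequence, the scale on which genes can be set beside each other, Gzmd was the highest of the 3 granzymes in all 10 B16-GFP and all 10 B16-IFNA9 tumors but in only 3 of 10 B16-IFNA4 tumors. In B16-IFNA9 tumors the mean levels were 6.78 ± 3.67 CPM per kb for Gzmd, 1.03 ± 0.594 for Gzmk and 0.503 ± 0.190 for Gzmm (SD, n = 10). In B16-GFP tumors they were 1.67 ± 0.826, 0.0643 ± 0.0764 and 0.541 ± 0.270, so that Gzmk was lowest in every tumor. In B16-IFNA4 tumors they were 0.802 ± 0.342, 0.708 ± 0.537 and 0.765 ± 0.219, which did not differ beyond their spread. Gzmd thus led the 3 measured granzymes in B16-GFP and B16-IFNA9 tumors only. Of the counts of the 3 genes, Gzmd held 272 of 421 in B16-GFP, 136 of 500 in B16-IFNA4 and 1099 of 1478 in B16-IFNA9 tumors, without correction for length. Its share within a tumor ran from 45.5% to 76.0%, from 11.4% to 46.6% and from 34.3% to 90.4%.

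Cell type markers moved with tumor type and are given beside the granzymes. All 12 NK cell markers were higher in B16-IFNA4 than in B16-GFP tumors, with a median log2 difference of 4.02, and all 12 in B16-IFNA9 tumors, with a median of 3.35. For comparison, the 15926 genes as a whole had medians of 0.01 and 0.00, and 31.3% and 26.9% of them were called higher. Between the interferon types 7 of the 12 were lower in B16-IFNA9 tumors and none higher, with a median of -0.70, beside 7.25% of all genes tested called lower. The summed NK marker level was 6.61 to 43.5 CPM in B16-GFP, 165 to 525 CPM in B16-IFNA4 and 87.4 to 307 CPM in B16-IFNA9 tumors, and no marker of the list was missing a row.

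Klrk1, the activating receptor NKG2D, rose by 3.40 (SE 0.247; edgeR adjusted p = 8.62e-13) in B16-IFNA4 and by 2.92 (SE 0.243; edgeR adjusted p = 3.48e-11) in B16-IFNA9 tumors against B16-GFP. Klra7, an inhibitory Ly49 receptor, rose by 4.79 (SE 0.297; edgeR adjusted p = 2.73e-14) and 3.89 (SE 0.290; edgeR adjusted p = 3.68e-12), and was lower in B16-IFNA9 than in B16-IFNA4 tumors by -0.91 (SE 0.243; edgeR adjusted p = 0.00894). Klrd1, the CD94 chain, likewise rose by 3.13 and 2.53 against B16-GFP, and Cd244a, a SLAM family receptor, by 2.14 and 1.65. Gzmd was lower in B16-IFNA4 than in B16-GFP tumors while every NK marker was higher.

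T cell markers rose as well. Of 12 listed, 10 had a row, and 10 and 9 of these were higher in B16-IFNA4 and B16-IFNA9 tumors than in B16-GFP, with medians of 2.47 and 2.07, beside the same 31.3% and 26.9% of all genes tested. None of the 10 passed between the interferon types by edgeR, where the median was -0.31 and 17.8% of all genes tested were called. Thy1, the marker with the highest counts, which cells other than T cells also express, rose by 0.60 in B16-IFNA4 tumors (edgeR adjusted p = 0.00580) and had a difference of 0.35 in B16-IFNA9 tumors that did not pass (edgeR adjusted p = 0.105). Cd3g, a chain of the T cell receptor complex, rose by 2.40 and 1.99, and Cd2, an adhesion receptor, by 2.62 and 2.16. The CD8 chain genes rose together: Cd8a by 3.36 (SE 0.399) and 2.99 (SE 0.397) and Cd8b1 by 3.33 (SE 0.352) and 3.04 (SE 0.351). Neither CD8 gene differed between the interferon types by the test, with log2 differences of -0.38 and -0.28. Ptprc, the leukocyte marker CD45, rose by 2.65 and 2.14. The summed T cell marker level was 68.9 to 346 CPM in B16-GFP, 344 to 512 in B16-IFNA4 and 207 to 436 in B16-IFNA9 tumors, of which Thy1 alone made up a mean of 83.0%, 64.9% and 64.5%. The other 9 T cell markers with a row summed to 8.84 to 58.8, 120 to 185 and 51.3 to 167 CPM in the same order. The summed CD8 level was 0.283 to 3.19, 6.91 to 18.5 and 2.03 to 18.6 CPM. The part of these cells in the granzyme levels was not tested beyond the ratios below.

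**Figure D3:**
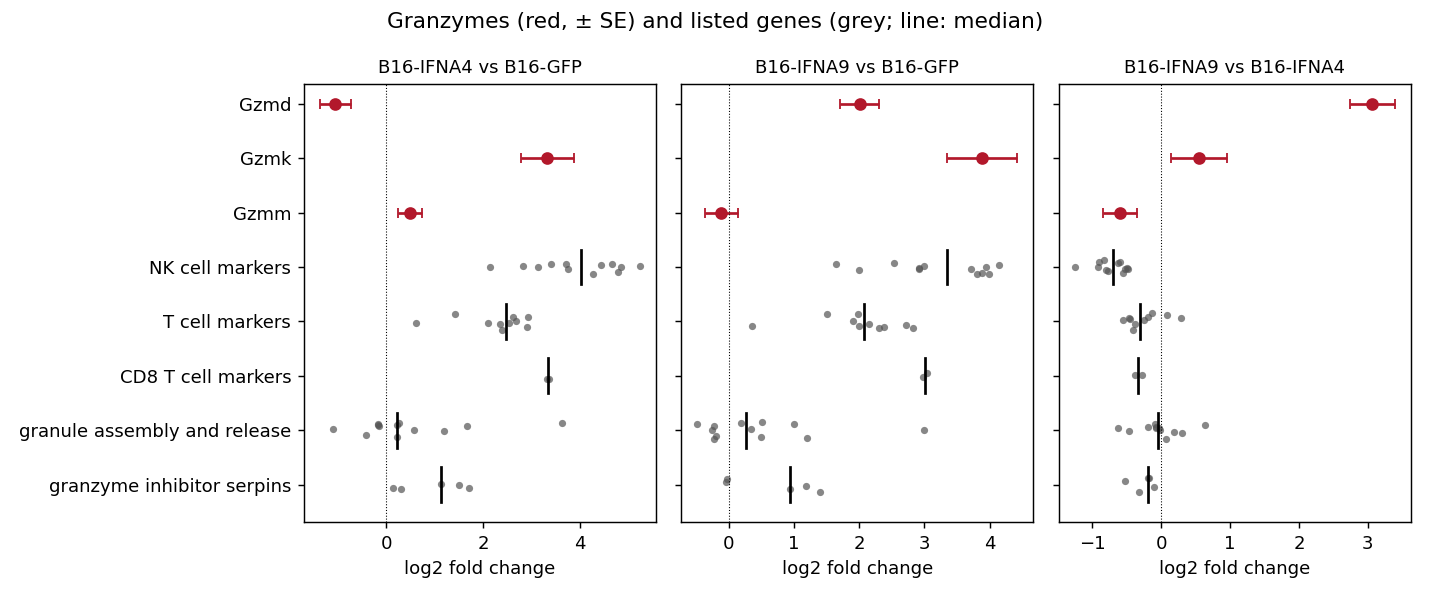
Log2 fold changes (horizontal axes, a separate scale in each panel) in the 3 comparisons for Gzmd, Gzmk and Gzmm (red, ± SE) and for the tested genes of 5 lists (grey points, 1 per gene; black line, median). Between B16-IFNA9 and B16-IFNA4 tumors Gzmd lies at 3.06 while the 12 NK cell markers lie below 0 with a median of -0.70.

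Each granzyme was then set against the summed NK markers of the same tumor. Gzmd was 2.67 to 9.41 CPM per 100 CPM of NK markers in B16-GFP tumors with a median of 6.64, 0.0945 to 0.516 in B16-IFNA4 tumors with a median of 0.243, and 1.93 to 4.67 in B16-IFNA9 tumors with a median of 2.94. The B16-IFNA4 range lay below both others, as a description of the gene chosen for its pattern. Per 100 CPM of the T cell markers, a sum that is mostly Thy1, the Gzmd medians were 0.742, 0.179 and 1.55 in the same order of types. Per 100 CPM of the 9 T cell markers other than Thy1 they were 4.06, 0.510 and 4.66. Per 100 CPM of the CD8 markers they were 128, 6.67 and 89.1, so that B16-IFNA4 was lowest against every marker sum while the order of the other types depended on the sum.

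Gzmm per NK marker level fell in both interferon types. This follows from the marker sum, whose mean was 26.3 CPM in B16-GFP, 323 in B16-IFNA4 and 204 in B16-IFNA9 tumors. Gzmm itself averaged 0.797, 1.13 and 0.740 CPM in the same order and did not pass in the fit of all tumors. The ratio tests against B16-GFP therefore restate the marker rise, to which Gzmm did not rise in proportion. No fall of Gzmm itself is read from them. The log2 ratio, with 0.5 CPM added to each level, fell by 3.29 in B16-IFNA4 tumors and by 3.02 in B16-IFNA9 tumors against B16-GFP, with 10 of 10 tumors below all B16-GFP tumors in each. The p of 2e-05 in both (two-sided permutation test, adjusted p = 4e-05 over 6 tests) is the smallest that 100000 resamples can give. Between the interferon types the Gzmm ratio differed by 0.27 (permutation test, adjusted p = 0.414). With the T cell markers in the place of NK markers, a sum that is mostly Thy1, the differences were -0.70 and -0.86 (permutation test, adjusted p = 0.0264 and 0.0140). With the T cell markers other than Thy1, a setting added after the data were seen, they were -1.79 and -1.96 (permutation test, adjusted p = 6e-05 in both).

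Gzmk per NK marker level depended on the settings, and no direction against B16-GFP is read from it. With nothing added, the medians were 0.218, 0.275 and 0.597 CPM of Gzmk per 100 CPM of NK markers in B16-GFP, B16-IFNA4 and B16-IFNA9 tumors. With 0.5 CPM added to each level, the log2 ratio was lower by -2.44 in B16-IFNA4 tumors (permutation test, adjusted p = 4e-05) and by -1.36 in B16-IFNA9 tumors (adjusted p = 0.00189) than in B16-GFP tumors. The added 0.5 CPM is above every Gzmk level in B16-GFP tumors, and with 0.1 CPM the B16-IFNA9 difference was 0.00042 (permutation test, adjusted p = 0.996). Against the T cell markers, mostly Thy1, the differences turned to 0.15 (permutation test, adjusted p = 0.606) and 0.80 (adjusted p = 0.0293). Against the T cell markers other than Thy1 they were -0.94 (permutation test, adjusted p = 0.00872) and -0.30 (adjusted p = 0.421). The ratio was 1.08 higher in B16-IFNA9 than in B16-IFNA4 tumors against NK markers (permutation test, adjusted p = 0.00523) and 0.65 higher against T cell markers with Thy1 (adjusted p = 0.0694) or 0.64 without it (adjusted p = 0.0607).

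**Figure D4:**
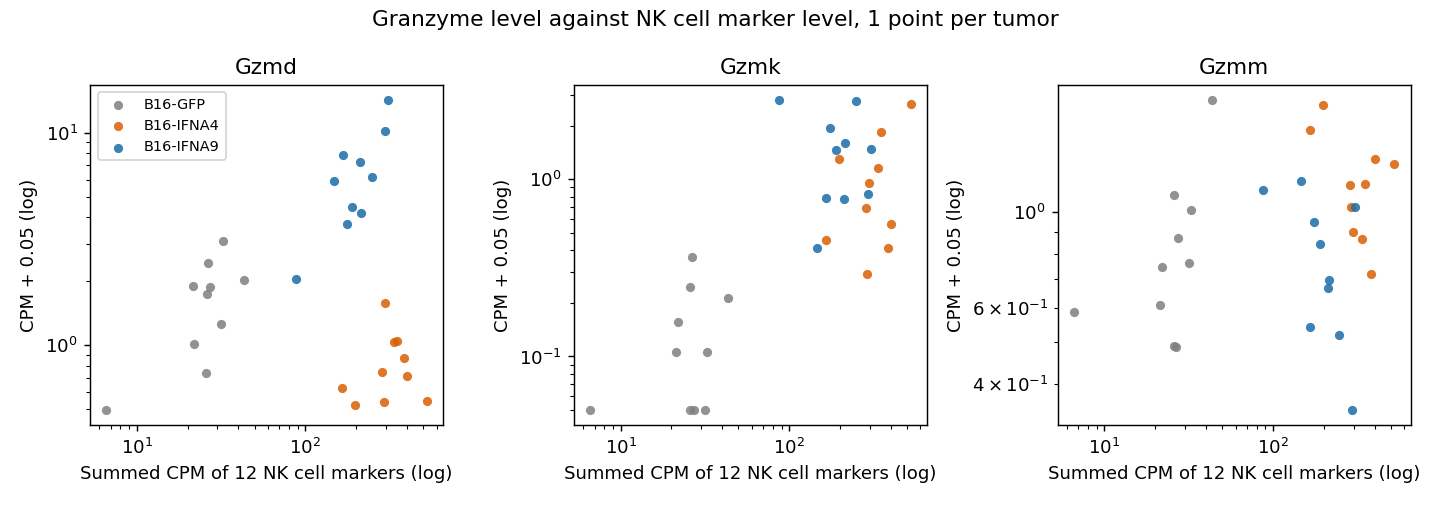
Level of each granzyme (vertical axes, CPM + 0.05, log scale) against the summed level of 12 NK cell markers (horizontal axes, CPM, log scale), with 1 point per tumor, colored by type. For Gzmd the B16-IFNA4 and B16-IFNA9 tumors cover overlapping NK marker levels (165 to 525 and 87.4 to 307 CPM) but separate Gzmd levels.

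Within a type, Gzmd and NK marker levels (log2) had Pearson r = 0.68 and Spearman rho = 0.64 over the 10 B16-GFP tumors and r = 0.81 and rho = 0.64 over the 10 B16-IFNA9 tumors. Without the 2 tumors farthest from the median NK level r was 0.36 and 0.44. Leaving them out also narrows the range of NK levels, which by itself can lower r, so no reason for the drop is read from it. Over the 10 B16-IFNA4 tumors r was 0.16 and rho 0.26, with r = 0.36 without the 2 farthest tumors, so that the trimmed values of the 3 types were close. With the T cell markers, mostly Thy1, r of Gzmd was 0.52 in B16-GFP tumors (0.69 without the 2 farthest), -0.06 in B16-IFNA4 (-0.27) and 0.10 in B16-IFNA9 tumors (-0.01). With the CD8 markers it was 0.11 (0.34), 0.15 (-0.15) and -0.09 (0.10). Of the 18 relations of Gzmk and Gzmm with NK, T and CD8 markers within types, none passed adjustment in a permutation test. The nearest was Gzmk with the CD8 markers in B16-IFNA9 tumors (r = 0.67, adjusted p = 0.478 by permutation test, and rho = 0.81, adjusted p = 0.134), with r = 0.51 without the 2 farthest tumors.

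The genes whose pattern was most like that of Gzmd were found by Pearson r of log2 CPM over all 30 tumors, which fall into the 3 types, so that r mainly follows the type means. The median r with Gzmd over all genes tested was 0.02 and the 99th percentile 0.63. Aldh1a2, an enzyme of retinoic acid synthesis, was nearest at r = 0.87, followed by Fam71f1 at 0.86, Zswim5 at 0.85, and Ifna9 itself at 0.83. B130024G19Rik (0.83), Tvp23a (0.81), Cep152, a centrosome protein gene (0.80), Ccl22, a chemokine that attracts CCR4-bearing cells (0.80), Stac2 (0.80) and Slitrk2 (0.79) completed the first 10. No listed NK or T cell marker was among these 10 by r over all tumors. With the type means removed, the order was another. The r within types was 0.69 for Ncr1 and 0.68 for Klrb1c, NK receptors named after their values were seen, and 0.63 for Klra7. These were the highest of the 12 NK markers. The other NK markers lay below the 99th percentile of 0.61 over all genes tested, down to 0.30 for Klra4, named in the same way. The 10 genes other than Ifna9 (0.06) had 0.39 to 0.61. Genes outside the NK list reached similar values, such as Il15ra (0.66) and Csf3r (0.63), so nothing particular to NK markers is read from this.

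Aldh1a2 averaged 4.96 ± 1.99, 2.91 ± 0.490 and 10.0 ± 2.90 CPM in B16-GFP, B16-IFNA4 and B16-IFNA9 tumors (SD, n = 10 each), the same order of types as Gzmd. Ccl22 averaged 17.8 ± 8.02, 15.1 ± 2.88 and 32.1 ± 7.14 CPM in that order. Within B16-GFP, B16-IFNA4 and B16-IFNA9 tumors apart, r with Gzmd was 0.67, 0.23 and 0.33 for Aldh1a2 and 0.81, -0.12 and 0.61 for Ccl22. Ifna9, at 0 outside its own type, had r = 0.09 within B16-IFNA9 tumors.

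**Figure D5:**
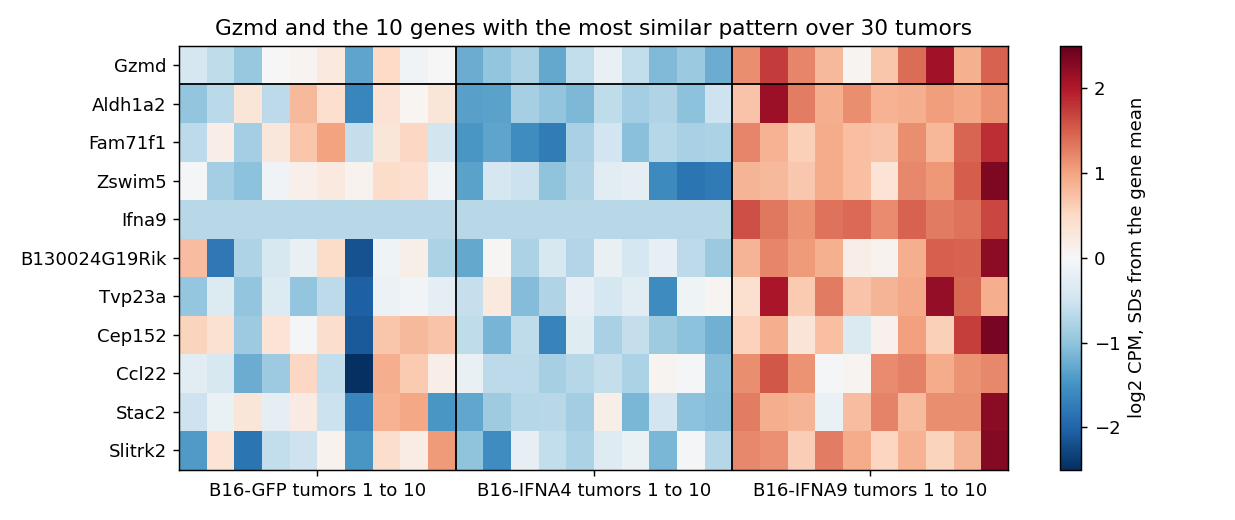
Log2 CPM of Gzmd (top row) and of the 10 genes with the highest Pearson r with it over 30 tumors (rows below, in falling order of r), as standard deviations from each gene's mean (color), with 1 column per tumor. All rows have their highest type mean in B16-IFNA9 tumors, and all but Tvp23a and Ifna9 have their lowest in B16-IFNA4 tumors.

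Granzymes are stored and released with other granule proteins. Of 18 granule assembly and release genes 12 had a row, which excludes perforin (Prf1). In B16-IFNA4 tumors 6 were higher and 3 lower than in B16-GFP (median 0.22), in B16-IFNA9 tumors 6 were higher and 4 lower (median 0.27), and between the interferon types 1 was higher and 1 lower in B16-IFNA9 (median -0.05). The list moved both ways, and over all genes tested 65.4%, 55.7% and 17.8% were called in these comparisons. Ctsc, the peptidase that activates progranzymes, rose by 0.52 (SE 0.141; edgeR adjusted p = 0.00273) in B16-IFNA9 tumors and had a difference of 0.22 in B16-IFNA4 tumors that did not pass. Calr and Lamp1, widely expressed granule and lysosome proteins, fell by 0.41 and 0.15 in B16-IFNA4 and by 0.23 and 0.23 in B16-IFNA9 tumors, and Lamp2 rose by 0.22 in B16-IFNA4 tumors. Nkg7, a granule membrane protein of killer cells chosen after its values were seen, rose by 3.63 (SE 0.231; edgeR adjusted p = 4.14e-14) and 3.00 (SE 0.226; edgeR adjusted p = 4.58e-12). Rab27a, a GTPase of granule and also melanosome transport chosen in the same way, fell by 1.12 and 0.48.

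Inhibitors of granzymes come from the serpin family. All 10 listed had a row and 5 passed the count filter, of which 4 were higher in B16-IFNA4 and 3 in B16-IFNA9 tumors than in B16-GFP and none was called between the interferon types by edgeR, beside 31.3% and 26.9% of all genes tested called higher against B16-GFP and 17.8% called between the interferon types. Serpinb9, the inhibitor of granzyme B, rose by 1.49 (SE 0.138; edgeR adjusted p = 1.54e-10) and 1.40 (SE 0.138; edgeR adjusted p = 1.33e-09). Serpinb6b rose by 1.12 and 0.94. Serpinb6a rose by 0.30 in B16-IFNA4 tumors and had a difference of -0.02 in B16-IFNA9 tumors, and Serpina3n had differences of 0.13 and -0.04 that did not pass.

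Other ways of killing were read from death ligands and cytokines. All 5 with a row of 6 listed were higher in both interferon types than in B16-GFP, with medians of 2.63 and 2.25, and 2 of the 5 were lower in B16-IFNA9 than in B16-IFNA4 tumors, beside 31.3%, 26.9% and 7.25% of all genes tested called in those directions. Fasl, the ligand of the death receptor Fas, rose by 3.98 (SE 0.332; edgeR adjusted p = 1.82e-11) and 3.27 (SE 0.329; edgeR adjusted p = 2.03e-09). Tnfsf10, the death ligand TRAIL, rose by 2.49 and 1.94. Tnf rose by 2.63 and 1.68 and Ltb, lymphotoxin beta, by 3.03 and 2.25, and these were the 2 genes lower in B16-IFNA9 than in B16-IFNA4 tumors, by -0.95 (SE 0.193; edgeR adjusted p = 0.000879) and -0.78 (SE 0.243; edgeR adjusted p = 0.0241).

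Of 18 genes for known granzyme substrates, 15 were tested. Against B16-GFP, 3 were higher and 9 lower in B16-IFNA4 tumors and 2 higher and 8 lower in B16-IFNA9 tumors, while 5 were higher and 1 lower in B16-IFNA9 than in B16-IFNA4 tumors. Of all genes tested, 34.1% and 28.9% were called lower in the first 2 comparisons and 10.5% higher in the last. The medians of the list were -0.62, -0.36 and 0.15. Set, a subunit of the SET complex that granzyme A cuts, fell by 0.71 and 0.36, and Tuba1b, an alpha tubulin cut by granzyme B, fell by 1.05 and 0.70. Melanoma cells also express such genes, and melanocyte markers with a row (3 of 6) fell in both interferon types, Tyrp1 by 1.97 and 1.17 and Mitf by 1.00 and 0.59. Whether the substrate genes followed the melanocyte markers was not tested. Mcl1 rose by 0.43 in B16-IFNA4 tumors and was lower by -0.36 in B16-IFNA9 than in B16-IFNA4 tumors.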

How the data were processed

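Total RNA of 30 whole tumors was sequenced, and the authors deposited gene counts that they made with HISAT2 2.0.4 after FastQC 0.11.3 and with summarizeOverlaps. The genome is named mm10 in the submitters' processing notes and mm11 in the study's methods, and the overlap mode, strand setting and handling of reads with several matches are not given in the sources used here. The deposited counts are raw, with no normalization. Types came from the sample titles, which name separate biological replicates. Identifiers were matched to GENCODE M21, in which 39495 of 39676 were found, 36719 with the same version.

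The counts of all 30 tumors entered 1 model without covariates in edgeR 4.0.16 (R 4.3.3), by its quasi-likelihood test after TMM scaling. Genes averaging under 10 counts per tumor were left out, which left 15926, and p-values were adjusted by the Benjamini-Hochberg method with a threshold of 0.05. The common biological coefficient of variation was 0.281. 1 count was worth 0.0511 to 0.0893 CPM, and this limit covers counting error only. Ratios to markers were compared with SciPy 1.17.1 by permutation over tumors, with Benjamini-Hochberg adjustment over 2 granzymes and 3 comparisons. The fit was tested on simulated data. DESeq2 1.42.0 was an alternative to edgeR, in which 3 genes had no adjusted p in each comparison. Other alternatives were other library scaling, other count filters, only the 20 tumors of the 2 types compared, the replicate number as a block, single tumors left out, and, for the ratios, T cell markers (with or, added after the data were seen, without Thy1), Ncr1 alone or another pseudocount. They are described with the results that depend on them.

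The members and gene lists were chosen with earlier results of these data known. The text names every granzyme, up to 4 genes of each list with the highest mean counts, the 10 genes most like Gzmd, and Ifna4 and Ifna9, and marks any other gene. The calls counted for granzymes are those of Gzmk and Gzmm. Coding sequence identity (Biopython 1.88, global alignment) was used in the place of protein identity, for which no table was at hand. Promoters are from RefSeq on GRCm38.p6, with all 3 granzymes matched.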

Additional observations from a re-analysis of the deposited data

Results flagged for a closer look

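In 48 groups of 10 tumors looked at, 9 had a lowest or highest tumor far from the others by Dixon's criterion, where chance gives about 1 in 20 groups, or 2.4. B16-GFP tumor 7 accounted for 6 of the 9. Its log2 ratio of Gzmk to NK markers was the highest of its type at -3.83, with the next at -5.05, and that of Gzmm was the highest at -2.78, with the next at -4.10. Gzmk was at 0 in this tumor. Its summed NK markers were the lowest of the type at 2.83 log2 CPM, its T cell markers the lowest at 6.12 and its leukocyte marker Ptprc the lowest at 4.33. Its summed melanocyte markers were the highest at 14.5 log2 CPM. Left out, this tumor changed no call for Gzmk or Gzmm.

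B16-IFNA4 tumor 1 had the highest summed macrophage markers of its type, 10.6 log2 CPM. B16-IFNA9 tumor 10 had the lowest mast cell markers of its type, 4.77 log2 CPM, and the highest melanocyte markers, 13.1 log2 CPM. None of the 3 granzymes had such a tumor on the log2 CPM scale.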

How the results depend on the processing

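The Gzmd differences kept their direction under all 7 other settings and without any single tumor, between -1.22 and -0.91 for B16-IFNA4 against B16-GFP, 1.81 and 2.16 for B16-IFNA9 against B16-GFP, and 2.87 and 3.23 between the interferon types when single tumors were left out. The call of Gzmk against B16-GFP was kept in all of them. Only the fit without a count filter did not depend on Gzmk being high in the interferon types, so the others are not read as support. In the fit of only the 20 tumors compared, 4338 genes in place of 2833 and 1 granzyme (Gzmm) in place of 0 were called between the interferon types. With the replicate number as a block (replicate block), 2 granzymes in place of 1 were called for B16-IFNA4 against B16-GFP, Gzmm at 0.55 (edgeR adjusted p = 0.0333), and it changed no other granzyme call. The numbers did not pair the tumors: 4 of 30 same-numbered pairs correlated above 0.1 (range -0.27 to 0.30), and 3 of 30 tumors correlated best with their own number. Without single tumors, 9941 to 10554, 8407 to 9194 and 2098 to 3797 genes were called in the 3 comparisons, and 1 to 2, 1 to 1 and 0 to 0 granzymes. The 2 came without B16-GFP tumor 5, where Gzmm also turned to 0.10 for B16-IFNA9 against B16-GFP (edgeR adjusted p = 0.739; range without single tumors -0.19 to 0.10). Against the T cell markers, a sum that is 64.5% to 83.0% Thy1 by type mean, the Gzmk ratio turned to 0.15 (B16-IFNA4) and 0.80 (B16-IFNA9) against B16-GFP and was 0.65 between the interferon types, and the Gzmm ratio between them turned to -0.16. Against the T cell markers other than Thy1, added after the data were seen, the Gzmk ratio was -0.30 for B16-IFNA9 against B16-GFP and 0.64 between the interferon types, neither of which passed, and the Gzmm ratio between them turned to -0.17. With 0.1 CPM added, the Gzmk ratio of B16-IFNA9 to B16-GFP turned to 0.00042. The cause of these changes was not tested. Without single tumors the Gzmk ratio ran from -2.55 to -2.26, -1.58 to -1.18 and 0.85 to 1.20, and the Gzmm ratio from -3.42 to -3.12, -3.19 to -2.85 and 0.10 to 0.41.

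Depth limits these values: only 4.68%, 5.49% and 19.8% of the genes tested had lower mean counts than Gzmk, Gzmm and Gzmd, and Gzmk in B16-GFP tumors rests on 15 reads in all. Tumor size and cell makeup were not measured here, and their part in the differences was not tested.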

Other observations

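For the lists below, the shares of all genes tested that were called are 65.4% for B16-IFNA4 against B16-GFP (31.3% higher, 34.1% lower), 55.7% for B16-IFNA9 against B16-GFP (26.9% higher, 28.9% lower) and 17.8% between the interferon types. Of 15 lymphocyte transcription factors tested, 11 were higher and 1 lower in B16-IFNA4 and 10 higher and 1 lower in B16-IFNA9 tumors than in B16-GFP, and 1 was lower between the interferon types. Ikzf1, the lymphoid factor Ikaros, rose by 2.10 and 1.61, and Bhlhe40 was the gene that fell, by 0.59 and 0.39. Of 12 cytokine and receptor genes of killer lymphocytes tested, 10 and 9 were higher than in B16-GFP and none was lower by edgeR, and between the interferon types 1 was higher and 3 were lower in B16-IFNA9 tumors. The higher one was Il12rb1, a chain of the IL-12 receptor named after its values were seen, at 1.03 (edgeR adjusted p = 0.00604). Il18rap, a chain of the IL-18 receptor, rose by 3.46 and 2.69 and was lower by -0.76 in B16-IFNA9 than in B16-IFNA4 tumors. Il15ra, which presents IL-15 to NK and CD8 T cells, rose by 1.49 and 1.10.

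CD4 and regulatory T cell markers were higher in 4 of 4 and 3 of 4 cases, and none was called between the interferon types by edgeR. Foxp3 rose by 2.17 and 2.34. Cd4, the marker of this list with the highest counts, rose by 1.48 in B16-IFNA4 tumors. In B16-IFNA9 tumors it had a difference of 0.66 that did not pass (edgeR adjusted p = 0.244). Mast cells were looked at because their proteases lie beside the granzyme cluster on chromosome 14, where none of 8 listed neighbors had a row. Of 8 mast cell markers, 4 were higher in B16-IFNA4 tumors, and 2 were higher and 1 lower in B16-IFNA9 tumors, than in B16-GFP. Between the interferon types 1 of the 8 was lower and 7 were not called, so that Hdc stood alone. Hdc, the histamine-forming enzyme, rose by 1.34 in B16-IFNA4 tumors and was lower by -1.45 in B16-IFNA9 than in B16-IFNA4 tumors. Cpa3, the mast cell carboxypeptidase with the highest counts of the list, had differences of -0.40, -0.34 and 0.07 that did not pass. Neutrophil markers had 1 of 5 higher and 3 lower in both interferon types, with S100a9 falling by 0.72 and 1.88. Csf3r, the marker of this list with the highest counts, was the 1 that rose, by 2.01 and 1.23. The summed neutrophil marker level had medians of 32.7, 61.5 and 41.6 CPM in B16-GFP, B16-IFNA4 and B16-IFNA9 tumors, so no single direction is read from the list. Macrophage markers had 1 of 6 higher and 2 lower in B16-IFNA4 and 1 higher in B16-IFNA9 tumors. Of 3 fibroblast markers 1 was higher in each interferon type.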
